A study of Mus musculus with 2 samples.

Results

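Non-cycling type 1 conventional dendritic cells (cDC1) were examined in single-cell RNA sequencing of the mouse colon lamina propria. The members were chosen by their own counts of unique molecular identifiers (UMIs, one per captured RNA molecule). A cell was kept if it had 200 to 6000 detected genes, at most 15% mitochondrial UMIs, at least 2 UMIs of Xcr1 and Clec9a together, at least 10 UMIs of H2-Aa, no UMI of Cd3e or Cd79a, fewer than 5 UMIs of Ccr7, Fscn1 and Ccl22 together, and fewer than 5 of the division genes Top2a, Mki67, Birc5, Ube2c and Pclaf together. The rule found 72 cells among 5111, with 31 of 2597 in the wild-type (WT) library and 41 of 2514 in the knockout (KO) library. The KO mice carried a deletion of a long non-coding RNA, LncRNA17Rik in the labels and lncLy6c in the study, which was made with CRISPR-Cas9 on a C57BL/6J background by cutting before exon 1 and after exon 2 in zygotes. Per the study, the cells were pooled from male mice aged 8 weeks, given as 6 mice without saying whether this is per library, and the animals were housed free of specific pathogens. Neither the labels nor the study name a treatment for these libraries, but the title of the WT library, WTGFC, holds letters that neither source explains, so what the WT arm is beyond its genotype label is not certain. Each genotype therefore stands on 1 library, no difference between genotypes has a replicate check, and no test was made. The deleted RNA itself was not analysed here, since 0 features carried either name, so the genotype label was not checked against it. Every interval given is a 95% interval that covers counting error only.

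Dendritic cells take up antigen in the gut wall and present it to T cells. The cDC1 lineage depends on the transcription factors IRF8 and BATF3, carries the chemokine receptor XCR1 and the dead-cell receptor CLEC9A, and is known for presenting antigen from other cells on MHC class I to CD8 T cells. Its other main branch, the type 2 cells (cDC2), carries SIRPα and often CD11b and mainly presents to CD4 T cells. After activation, dendritic cells of both branches switch on Ccr7, Fscn1 and Ccl22 and leave for the draining lymph node, which is the state the rule kept out.

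The label held in the genes that the rule did not use. Naaa, which encodes a lysosomal amidase typical of cDC1, stood at 978 CPM (counts-per-million of the UMIs of a group) in the WT members and 662 in the KO members, against 158 and 199 CPM in cDC2 marked by Cd209a and Mgl2. Irf8 stood at 978 and 839 CPM, against 56.3 and 23.7 CPM. Cadm1, an adhesion molecule of cDC1, stood at 123 and 131 CPM and had 0 UMIs in those cDC2, which puts it at least 26.3-fold higher in WT and at least 49.7-fold higher in KO against a floor of 3 UMIs. All 3 markers were thus high in both libraries and low or unseen in the cDC2.

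**Figure D1:**
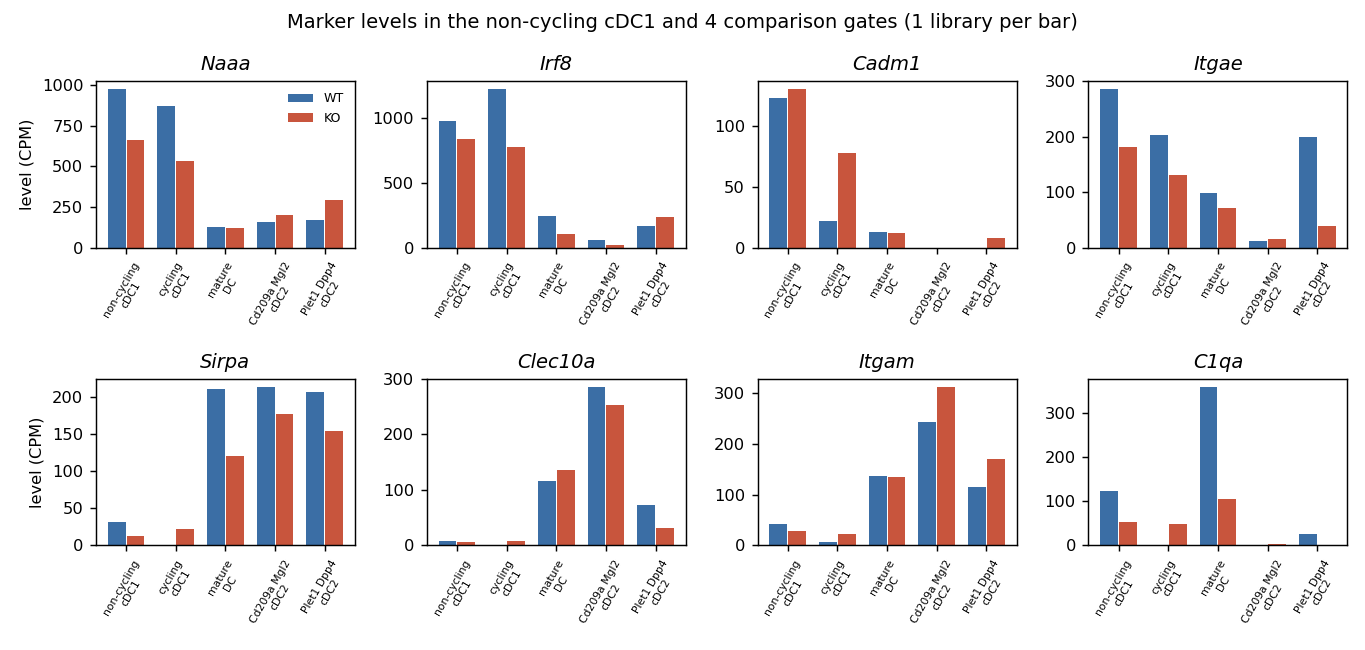
Levels of 8 genes (CPM, y axis) in the non-cycling cDC1 and in 4 other groups of dendritic cells gated by UMI counts (x axis), with 1 bar per library, WT in blue and KO in red. Naaa and Irf8 were high in both cDC1 gates and Cadm1 and Itgae were highest in the members, whereas Sirpa, Clec10a and Itgam were low there; C1qa, a macrophage gene, stood at 123 CPM in the WT members.

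The labels describe the sorted cells as CD11b positive, and the gene for CD11b, Itgam, was low in the members. It stood at 42.0 CPM (WT) and 29.1 CPM (KO), with a UMI in 6 of 31 and 11 of 41 cells, whereas the Cd209a Mgl2 cDC2 had 244 and 313 CPM. A sort on CD11b can set how many cDC1 reach a library, and its part in the shares below was not tested.

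The values that chose the members are given as a description. The median sum of Xcr1 and Clec9a was 4 UMIs in WT and 5 in KO. Just inside that limit, 10 WT and 10 KO members had exactly 2 UMIs, and just outside it 24 WT and 36 KO cells had 1 UMI and met the rest of the rule. The maturation limit lay closer to the KO members, of which 16 of 41 had no UMI of Ccr7, Fscn1 or Ccl22, against 24 of 31 in WT. Sums of 3 or 4 occurred in 2 WT and 6 KO members, and sums of 5 to 9 in 2 WT and 3 KO cells outside. At the division limit, 2 WT and 8 KO members had 3 or 4 UMIs, and 0 WT and 3 KO cells outside had 5 to 9.

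The KO members held more UMIs per cell, with a median of 18025 (6561 to 34942) against 12069 (703 to 22409) in WT, and their sums came to 756449 and 405026 UMIs. The libraries shared 1 barcode, and no member barcode was among them. Some members carried RNA of other lineages. The complement genes C1qa, C1qb and C1qc reached 3 UMIs in 4 WT and 1 KO members, with 135 and 93 UMIs in all, and the neutrophil genes S100a8 and S100a9 reached 5 UMIs in 0 WT and 2 KO members, with 472 UMIs over all KO members and up to 405 in 1 cell. T cell receptor or Cd3 genes reached 2 UMIs in 1 WT member, and Cd79b with Ms4a1 in 1 KO member. The cDC2 genes Cd209a and Mgl2 together reached 2 UMIs in 2 WT and 5 KO members, with 9 and 64 UMIs in all. A list of 12 cDC2 genes stood at 812 CPM (WT) and 713 CPM (KO). Cells were not left out below for cDC2 genes. Over the whole list of 13 macrophage genes, the summed level per cell ran from 0 to 27998 CPM in WT and from 34.5 to 16990 CPM in KO, with medians of 226 and 688 CPM. The plasma cell list was spread more widely, with UMIs in all 31 WT members (507 to 2876 CPM) and in 33 of 41 KO members, and it stood at 1193 CPM (WT) and 144 CPM (KO), or 1171 and 146 CPM without the other-lineage members, so this gap between the libraries did not rest on those members. Without the cells that met the complement, T cell, B cell or neutrophil limits, 26 WT and 39 KO members remained, and the main differences that turned or lost their interval there are given both ways. The members with no UMI of Ccr7, Fscn1 or Ccl22, a further set used below, still held other-lineage members in WT but none in KO. No set left out both the other-lineage members and the members with UMIs of these genes.

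Among all kept cells, the share of members was 1.19% (0.812 to 1.69) in the WT library and 1.63% (1.17 to 2.21) in the KO library. The log2 ratio of these shares was 0.45, with an interval of -0.26 to 1.17 that holds 0. Of all cells with the same Xcr1, Clec9a and H2-Aa limits, 44 were found in WT and 106 in KO, and the non-cycling members were 70.5% (54.8 to 83.2) of them in WT but 38.7% (29.4 to 48.6) in KO. The cycling cells were 5 of 36 non-mature ones in WT, or 13.9% (4.67 to 29.5), and 35 of 76 in KO, or 46.1% (34.5 to 57.9). With every cell thinned to 5000 UMIs, which left out 2 WT cells, these shares were 14.7% (4.95 to 31.1) and 36.8% (26.1 to 48.7), and their intervals overlapped.

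**Figure D2:**
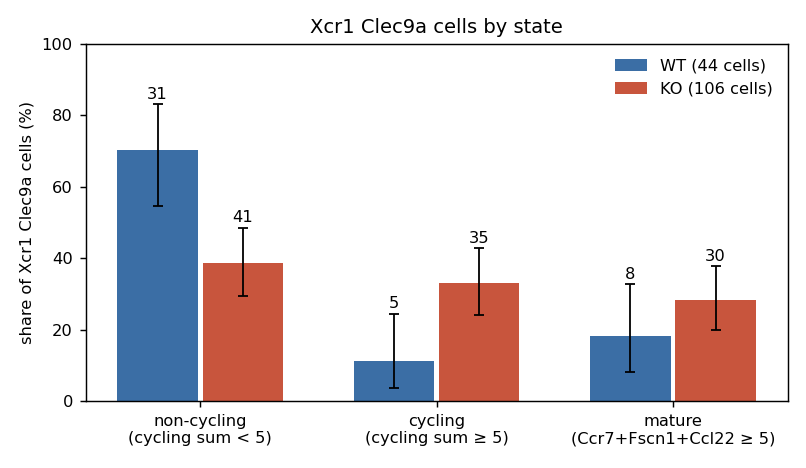
Share of Xcr1 Clec9a cells in each state (%, y axis) by library, with the number of cells printed above each error bar, which is the exact 95% interval. Non-cycling cells were 31 of 44 in WT and 41 of 106 in KO, and cycling cells 5 and 35.

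The cut between non-cycling and cycling cells also held in division genes outside the rule. The sum of 45 such genes was 4247 CPM (WT) and 4493 CPM (KO) in the members, against 16399 and 13366 CPM in the cycling cDC1. The cDC1 list stood at 20584 CPM in the WT members against 20264 CPM in the cycling cells, and at 25970 against 19430 CPM in KO, where Cst3 alone made up 14966 of the 19645 UMIs of the list in the members. Over 1630 genes with enough UMIs, 13 (0.798%) were at least 2-fold higher and 28 (1.72%) at least 2-fold lower in the members in both libraries.

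Against the Cd209a Mgl2 cDC2, 79 of 2884 genes (2.74%) were at least 2-fold higher and 161 (5.58%) at least 2-fold lower in the members of both libraries. The genes that were highest by the smaller of both libraries' bounds included Cadm1, Irf8, Ppt1, P2ry14, Cxcl9, Ifi205, Itgae, Rab7b, Ncoa7, Cst3, Trim35, Rtl8a, Lrrk2 and Txndc16. Ppt1, a lysosomal thioesterase, stood at 1170 CPM (WT) and 608 CPM (KO) against 62.6 and 39.5 CPM. Itgae, which encodes the CD103 integrin chain used to sort gut cDC1, stood at 286 and 182 CPM against 12.5 and 15.8 CPM. Cst3, the protease inhibitor cystatin C, stood at 12967 and 19785 CPM against 2533 and 4389 CPM. Cxcl9 owed 85.4% of its WT UMIs to the members with other lineages' UMIs.

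Other cDC1 genes followed the same order. Wdfy4, needed for cross-presentation by cDC1, was 1.64 (1.34 to 1.95) log2 units higher than in the cDC2 in WT and 1.24 (1.01 to 1.48) in KO. Btla, an inhibitory receptor, was higher by 2.28 (1.31 to 3.36) and 2.87 (1.67 to 4.29). Batf3 differed less, by 0.63 (-0.02 to 1.26) and 0.50 (-0.04 to 1.03), intervals that hold 0. MHC class II did not mark the members: H2-Ab1 differed by 0.00 (-0.06 to 0.07) log2 units in WT and 0.22 (0.18 to 0.26) in KO, beside a limit on H2-Aa that both gates share.

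The 15 lowest were Fn1, Clec10a, Capg, Ccl9, F13a1, Cd209d, Ccl2, S100a4, Mt2, Wfdc17, Ms4a4c, Cybb, Tlr2, Sirpa and Raph1. Clec10a, a lectin of cDC2, stood at 7.41 CPM (WT) and 6.61 CPM (KO) against 286 and 253 CPM. Sirpa, the cDC2 surface receptor, stood at 32.1 and 11.9 CPM against 214 and 177 CPM. Irf4, a transcription factor of cDC2, stood at 19.8 and 30.4 CPM against 95.4 and 141 CPM. Against the second group of cDC2, marked by Plet1 and Dpp4 and with only 13 cells in KO, 41 of 2054 genes (2%) were at least 2-fold higher and 52 (2.53%) lower. There Itgae separated the gates by 0.52 (0.09 to 0.95) log2 units in WT and by 2.24 (0.98 to 3.88) in KO.

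Against the mature dendritic cells, gated by the maturation genes of the rule, 104 of 4671 genes (2.23%) were at least 2-fold higher and 299 (6.4%) at least 2-fold lower in the members of both libraries. Tlr3, a receptor for double-stranded RNA that marks cDC1, stood at 71.6 and 54.2 CPM in the members against 1.70 and 2.56 CPM. P2ry14, a receptor for UDP-sugars, stood at 126 and 103 CPM against 6.25 and 9.23 CPM. Il4i1, an amino acid oxidase of mature cells, stood at 2.47 and 1.32 CPM against 117 and 99.7 CPM. The mature gate also holds cells of the cDC2 branch, as Sirpa and Clec10a show in the plot of marker levels.

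The question for the genotype was which genes of these cells stood apart between the KO and WT libraries. UMIs were summed over the members of each library, and a gene was called at a log2 ratio of 1 or more either way, with 1 CPM added to both levels. Ratios below are without that addition. Of 2933 genes with at least 50 UMIs, 87 (2.97%) were called higher and 88 (3%) lower in KO. The median gene lay at a log2 ratio of -0.09. Counted relative to that median, 102 were higher and 66 lower, so the balance of directions depended on the scaling. The counting interval lay above 0 for 343 genes (11.7%) and below 0 for 486 (16.6%), which is the background for the lists that follow. For the same genes these shares were 12.3% and 14.9% without the other-lineage members. Among members without Ccr7, Fscn1 or Ccl22 UMIs they were 9.89% and 15.1%. The lists were not matched to this background by UMIs, which affect how many intervals exclude 0.

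**Figure D3:**
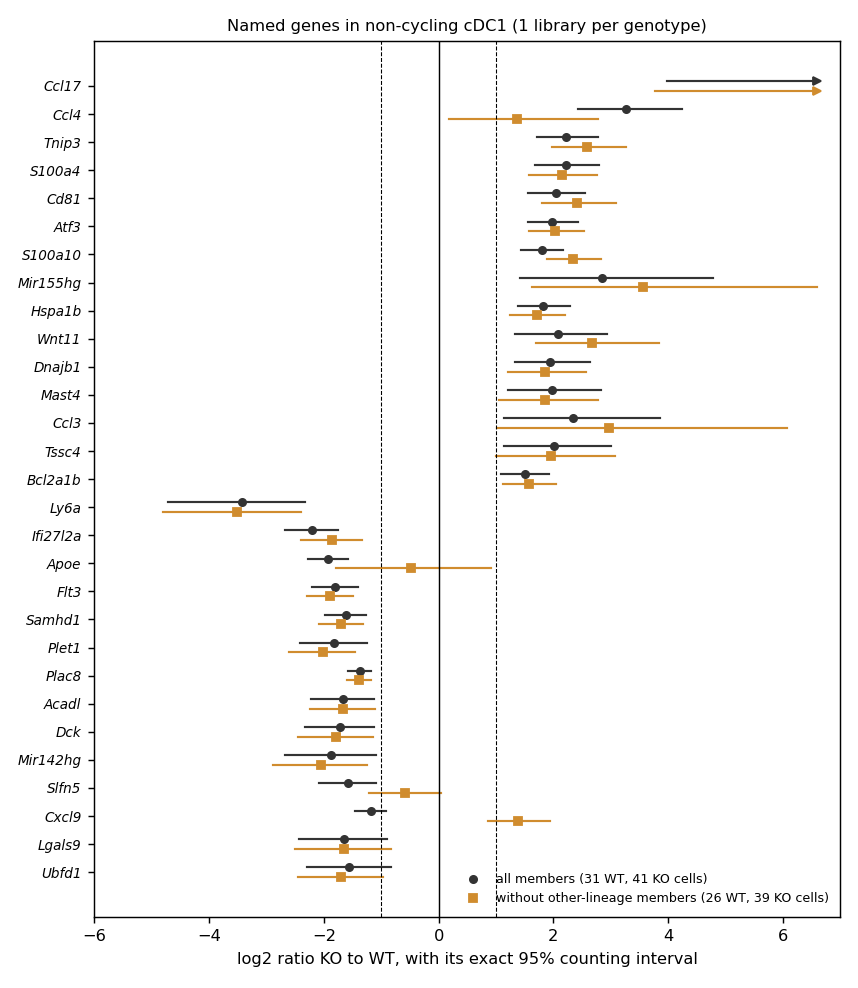
Log2 ratio of KO to WT (x axis) for the 15 genes with the highest lower bound and 14 of the 15 with the lowest upper bound, with exact 95% counting intervals as lines, for all members (circles) and without the members that carried other lineages' UMIs (squares). Ccl17 has no UMI in WT and is drawn as an open-ended interval. Cxcl9 changes sides without those members, from -1.18 to 1.38, and the intervals of Apoe and Slfn5 then hold 0.

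Ccl17 (ENSMUSG00000031780) lies at chr8:94810453-94812036, Flt3 (ENSMUSG00000042817) at chr5:147330741-147400489 and Ly6a (ENSMUSG00000075602) at chr15:74994877-74998031 in the GENCODE M21 annotation of GRCm38, all protein-coding.

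Several chemokine genes were among those higher in KO. Ccl17, a ligand of CCR4 that draws T cells, had 0 UMIs in the WT members and 111 UMIs or 147 CPM in 11 of 41 KO members, and was at least 19.8-fold higher against a floor of 3 UMIs in WT. One KO cell held 59 of these UMIs. With all cells thinned to 2000 UMIs it was seen in 0 of 30 WT and 4 of 41 KO members. Ccl4, an inflammatory chemokine, stood at 29.6 CPM (WT) and 286 CPM (KO), or a log2 difference of 3.27 (2.43 to 4.24). Most of it lay in few cells: 81.9% of the KO UMIs of Ccl4 came from the 2 KO members with other lineages' UMIs, and without them the levels were 21.1 and 54.2 CPM, a ratio of 1.36 (0.19 to 2.77). Among members without Ccr7, Fscn1 or Ccl22 UMIs its interval held 0 (0.75, -0.79 to 2.38), as did that of Tnf (1.24, -0.29 to 2.94). Ccl3, its close relative, stood at 14.8 and 75.4 CPM and Tnf at 24.7 and 74.0 CPM. Their ratios of 2.35 (1.14 to 3.85) and 1.58 (0.60 to 2.72) were higher still, by point value, without those members. In that set the macrophage list was also higher in KO, at 310 and 840 CPM (1.44, 1.13 to 1.75), against 1610 and 1208 CPM in all members, and its part in these values was not tested. Ccl6 stood at 56.8 CPM (WT) and 120 CPM (KO).

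Other cytokine genes that looked lower in KO rested on few WT cells. Il10, an inhibitory cytokine, stood at 91.4 CPM (WT) and 23.8 CPM (KO), but all 37 WT UMIs lay in members with other lineages' UMIs, and without them it had 0 UMIs in WT and 12 in KO. Cxcl9, an interferon-induced ligand of CXCR3, stood at 610 and 268 CPM, yet 85.4% of the WT UMIs lay in these cells, and without them the order turned to 108 and 282 CPM, a log2 ratio of 1.38 (0.86 to 1.93). Il1b stood at 718 and 510 CPM and turned to 385 and 463 CPM, with an interval that held 0 (0.26, -0.03 to 0.57). Cxcl1 held 84.2% of its WT UMIs in these cells and stood at 93.8 and 19.8 CPM. Without these cells it stood at 18.1 and 6.95 CPM, on 6 and 5 UMIs, and its interval held 0 (-1.38, -3.43 to 0.60). Il1rn, the interleukin 1 receptor antagonist, stood at 200 and 25.1 CPM, and 2 WT members alone held its UMIs outside those cells. Of 14 chemokine and cytokine genes with at least 50 UMIs, 5 were called higher and 4 lower in all members. Without the other-lineage members 6 of them, Il10, Cxcl1, Ccl3, Ccl4, Tnf and Il1rn, fell under 50 UMIs, so no count of calls is given for that set. The 33 genes of the whole list summed to 3247 CPM (WT) and 2775 CPM (KO) in all members (-0.23, -0.33 to -0.13). Without the other-lineage members the sums turned to 1400 and 2047 CPM (0.55, 0.40 to 0.70). Among members without Ccr7, Fscn1 or Ccl22 UMIs they were 3124 and 1862 CPM (-0.75, -0.91 to -0.59), in a set that held other-lineage members in WT alone.

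Among receptor genes, Flt3 was lower in KO. It encodes the receptor for the growth factor on which dendritic cell development depends. Flt3 stood at 388 CPM (WT) and 111 CPM (KO), or a log2 difference of -1.80 (-2.20 to -1.41), and at -1.89 (-2.30 to -1.49) without the other-lineage members. Its UMIs were spread over cells, with the top 5 cells holding 38.2% in WT and 32.1% in KO. It was seen in 25 of 31 WT and 34 of 41 KO members, with a median over cells of 403 and 91.5 CPM. Thinned to 2000 UMIs, 15 of 30 WT and 10 of 41 KO members had a Flt3 UMI. The ranges of single cells overlapped. In WT, Flt3 was also 0.98 (0.63 to 1.33) log2 units above the Cd209a Mgl2 cDC2, whereas in KO both gates were alike in point value, at 111 and 105 CPM. Kit and Csf2ra, other growth factor receptor genes, had ratios of 0.10 (-0.62 to 0.85) and -0.11 (-0.72 to 0.51).

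The cDC1 identity genes leaned lower in KO by small amounts, with exceptions. Of 21 genes with at least 50 UMIs, 0 were called higher and 1 lower, 2 intervals lay above and 8 below 0, and the median ratio was -0.33. Ppt1 stood at 1170 and 608 CPM (-0.94, -1.13 to -0.76), Naaa at 978 and 662 CPM (-0.56, -0.75 to -0.37) and Itgae at 286 and 182 CPM (-0.65, -1.02 to -0.28). The called gene was Btla, at 91.4 and 44.9 CPM (-1.02, -1.74 to -0.31), and that call was lost without the other-lineage members (-0.77, -1.56 to 0.03). Against these, Cst3 was higher in KO by 0.61 (0.56 to 0.66) and Id2, a transcriptional regulator needed by cDC1, by 0.34 (0.11 to 0.59). Cadm1 and Batf3 had intervals that hold 0, at 0.08 (-0.42 to 0.60) and -0.42 (-1.01 to 0.18). Without the other-lineage members 4 intervals lay above and 6 below 0, and the median was -0.30.

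Genes of antigen presentation were in part higher and in part lower in KO, by less than 2-fold. On the MHC class I side, 3 of 24 intervals lay above and 11 below 0, none was called, and the median ratio was -0.36. B2m, the light chain of all class I molecules, stood at 1904 CPM (WT) and 1058 CPM (KO) (-0.85, -0.99 to -0.70). Tapbp and Tap1, of the peptide-loading complex, stood at 427 and 230 CPM and at 279 and 194 CPM. The interval of Tap1 held 0 without the other-lineage members (-0.37, -0.77 to 0.02). The proteasome activator Psme1 stood at 1042 and 719 CPM, whereas the immunoproteasome subunit Psmb8 was higher in KO, at 469 and 609 CPM. H2-D1 was also higher, at 965 and 1278 CPM, but class I genes are close copies and the counting could divide reads among them. Without the other-lineage members 4 intervals lay above and 7 below 0. On the MHC class II side, Cd74, the invariant chain, stood at 14411 and 22205 CPM (0.62, 0.58 to 0.67), H2-Eb1 at 5493 and 7767 CPM and H2-Ab1 at 7770 and 10598 CPM. Ciita, the master regulator of these genes, had an interval that holds 0, at 0.29 (-0.37 to 0.97). Of 14 class II genes, 4 intervals lay above and 1 below 0.

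Activation genes below the maturation limit were higher in KO as a list. Of 17 genes linked to dendritic cell maturation that the rule did not use, 8 intervals (47.1%) lay above and 0 below 0, and none was called, with a median of 0.41. The rule's own maturation genes were also seen in more KO members, as given above, so the list is not independent of where the limit was set. Rel, an NF-κB subunit listed elsewhere, stood at 469 CPM (WT) and 813 CPM (KO). Marcksl1 stood at 133 and 266 CPM, Gadd45b at 272 and 453 CPM and Nfkbia, the feedback inhibitor of NF-κB, at 756 and 1027 CPM. Among costimulatory ligands, Cd80 stood at 44.4 and 79.3 CPM (0.84, 0.06 to 1.68, with an interval that held 0 without the other-lineage members), Tnfsf9 at 71.6 and 118 CPM (0.72, 0.10 to 1.37) and Cd86 at 163 and 196 CPM (0.26, -0.16 to 0.71). Cells with no Ccr7, Fscn1 or Ccl22 UMI, 24 in WT and 16 in KO, gave 7 intervals above and 1 below 0 for the list, with a median of 0.71, but there the intervals of Gadd45b (0.17, -0.28 to 0.62) and Cd80 held 0. Of the genes named as highest in KO, Tnip3, an inhibitor of NF-κB signalling, stood at 86.4 and 405 CPM, Mir155hg, the host gene of miR-155, at 9.88 and 71.4 CPM, and Bcl2a1b, one of several near-identical survival genes whose reads may be divided, at 146 and 411 CPM.

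**Figure D4:**
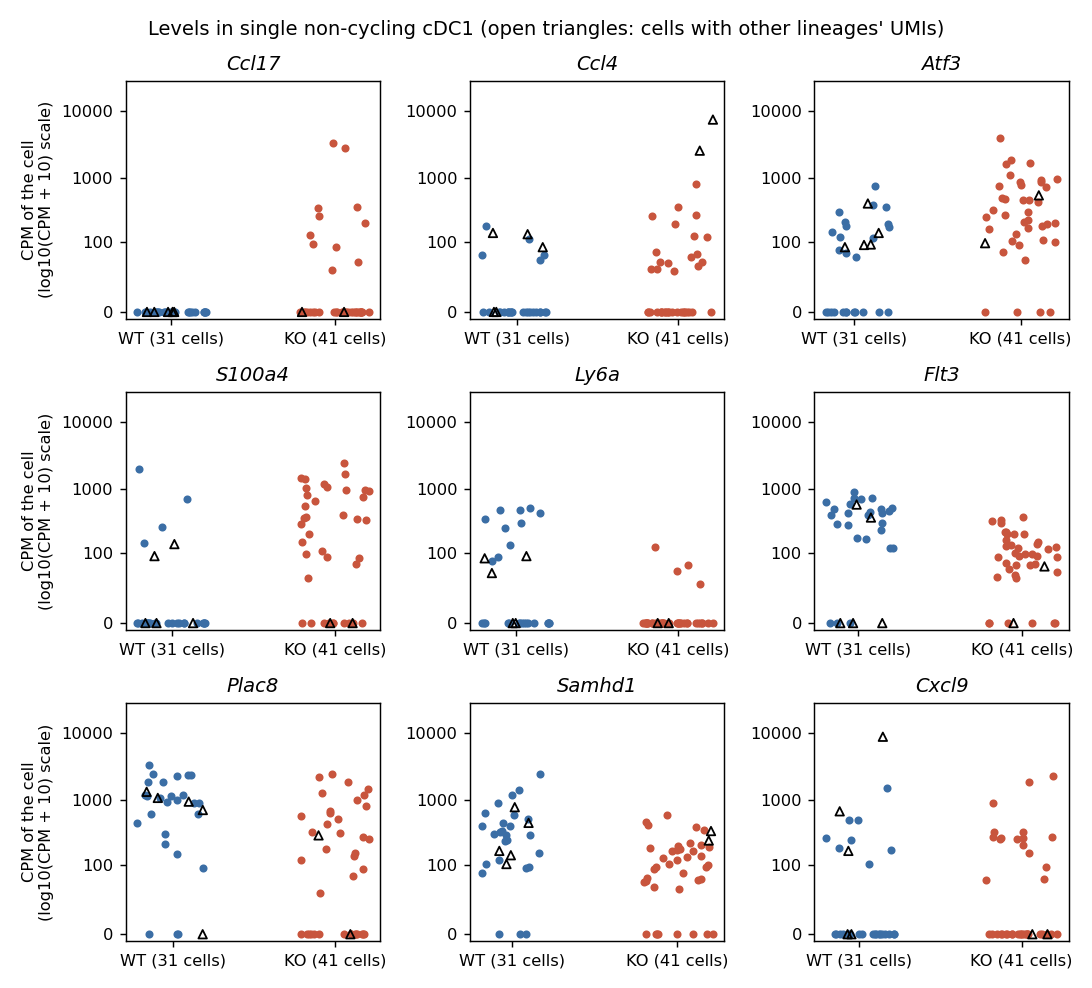
Level of 9 genes in every member (CPM of the cell on a log10(CPM + 10) scale, y axis) by library, 31 WT and 41 KO cells, with members that carried other lineages' UMIs as open triangles. Flt3 was seen in 25 of 31 WT members, Ccl17 was seen in 11 KO members alone, and the highest Ccl4 values in KO and the highest Cxcl9 value in WT were triangles.

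Some interferon-related genes were lower in KO both in all members and without the other-lineage members. The list of interferon-stimulated genes was not apart once the other-lineage members were left out. Among members without Ccr7, Fscn1 or Ccl22 UMIs its sum was lower in KO, but that set held other-lineage members in WT alone. Their part in this sum was not tested. Ifi27l2a, an interferon-induced gene, stood at 341 and 74.0 CPM, and at 247 and 68.1 CPM without the other-lineage members. Ly6a, the Sca-1 antigen that interferons raise, stood at 114 CPM (46 UMIs) and 10.6 CPM (8 UMIs), a ratio of -3.42 (-4.72 to -2.33). Both genes kept their order and an interval below 0 in both sets of cells. Slfn5 did not: it stood at 225 and 75.4 CPM in all members and at 117 and 77.9 CPM without the other-lineage cells, a ratio of -0.59 (-1.21 to 0.04).

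Over the list of interferon-stimulated genes, 6 of 13 intervals lay below and 0 above 0, 3 were called lower, and the median was -0.61. Without the other-lineage members 1 lay below and 2 above 0, and the median was -0.06. The summed level of the 39 genes was 2671 and 2151 CPM in all members, and 2153 and 2132 CPM without those cells, a log2 ratio of -0.01 (-0.14 to 0.12). Among members without Ccr7, Fscn1 or Ccl22 UMIs it was 2244 and 1453 CPM, a ratio of -0.63 (-0.81 to -0.45). The guanylate-binding and immunity-related GTPases, which interferon γ induces and which act on intracellular microbes, were too low to be tested one by one. Their 15 genes summed to 85 WT and 27 KO UMIs, or 210 and 35.7 CPM (-2.56, -3.24 to -1.92). Without the other-lineage members they summed to 139 and 29.2 CPM (-2.25, -3.06 to -1.47). Gbp2 had 25 WT and 4 KO UMIs and Irgm1 17 and 9. Unlike that of the longer list, this sum stayed apart without the other-lineage members.

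The promoters of these genes were read for the letters GAAA, any 2 bases and GAAA again, the core of the interferon-stimulated response element, in the 250 bases before the RefSeq start on both strands (GRCm38.p6). Of all promoters, 2.98% held them, and counted by gene, 936 of 27025 genes had a promoter with them. Among the matched genes they stood in 9 of 9 GTPase genes and 15 of 30 interferon-stimulated genes, but in 2 of 11 of the genes named as lowest in KO and 0 of 13 of those named as highest. For 5 of the genes with a match, 2 GTPase genes and 3 others with values in the text, 30 bases around it are shown 5′ to 3′ on the gene's strand, with the matched letters in capitals, read on either strand. The Gbp2 window lies at chr3:142620594-142620623 on the plus strand, the Irgm1 window at chr11:48871431-48871460 on the minus strand, the Isg15 window at chr4:156200877-156200906 on the minus strand, the Slfn5 window at chr11:82951937-82951966 on the plus strand and the Lgals9 window at chr11:78984960-78984989 on the minus strand.
Gbp2: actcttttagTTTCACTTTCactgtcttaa
Irgm1: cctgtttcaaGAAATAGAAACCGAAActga
Isg15: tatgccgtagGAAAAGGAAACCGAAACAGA
Slfn5: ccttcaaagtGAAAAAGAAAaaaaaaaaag
Lgals9: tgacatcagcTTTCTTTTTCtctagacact
Irgm1 and Isg15 hold overlapping matches. Isg15 stood at 123 CPM (WT) and 80.6 CPM (KO), with an interval that held 0 without the other-lineage members (-0.66, -1.32 to 0.01). Among members without Ccr7, Fscn1 or Ccl22 UMIs it had 24 WT and 2 KO UMIs, or 77.1 and 7.59 CPM (-3.35, -6.47 to -1.34). That set, too, held other-lineage members in WT alone. Lgals9, the galectin-9 gene, stood at 104 and 33.1 CPM (-1.65, -2.43 to -0.90). A match is a description of letters and not evidence of binding. Of 28 promoters checked, 16 had the 20 bases after the RefSeq start in a GENCODE transcript start. The Slfn5 window lies inside the gene in GENCODE M21, which begins at chr11:82951349, so it depends on the start used.

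Stress genes were divided. Of 38 genes of the immediate-early and heat shock list, 7 were called higher and 1 lower, 14 intervals lay above and 10 below 0, and the median was 0.06. Their shifts were thus uneven. Atf3, a stress-induced transcription factor, stood at 126 and 496 CPM (1.98, 1.55 to 2.43) and was high in both kinds of members, with 109 and 577 CPM in those without Ccr7, Fscn1 or Ccl22 UMIs. The chaperones Hspa1b and Dnajb1 stood at 116 and 410 CPM and at 59.3 and 229 CPM. In KO, the high chaperone levels lay in the members with 1 to 4 maturation UMIs, where Hspa1b stood at 574 CPM in 25 cells, against 102 CPM in the other 16. It was seen in 14 of those 25 cells, 1 KO cell held 111 of the 310 KO UMIs, and 5 cells held 79.0%. Among members without maturation UMIs Hspa1b stood at 145 CPM (WT) and 102 CPM (KO), with an interval that holds 0 (-0.50, -1.24 to 0.22), and that of Dnajb1 held 0 too (0.58, -0.35 to 1.53). Hspa1a and Hspa1b are near-identical, and reads may be divided between them. Fos and Nr4a1 had intervals that hold 0, at -0.19 (-0.37 to 0.00, but -0.50, -0.77 to -0.23, among members without maturation UMIs) and -0.19 (-0.46 to 0.09), whereas Dusp1 stood at 993 and 694 CPM.

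Several other named genes stood apart in most alternatives. S100a4 and S100a10, genes of the S100 family, stood at 76.5 and 354 CPM and at 178 and 616 CPM. S100a4 was seen in 6 of 31 WT and 28 of 41 KO members, and S100a10 in 18 and 40. In the Cd209a Mgl2 cDC2, S100a4 stood at 2056 and 2407 CPM, and the part of cDC2 RNA in its levels was not tested. Cd81, a tetraspanin, stood at 96.3 and 395 CPM, Wnt11 at 39.5 and 168 CPM, and the kinase gene Mast4 at 39.5 and 155 CPM. Tssc4 stood at 29.6 and 119 CPM. On the lower side, Plac8 stood at 1151 and 443 CPM, Samhd1, a nucleotide hydrolase, at 437 and 143 CPM, Acadl, a mitochondrial fatty acid oxidation enzyme, at 198 and 62.1 CPM, and Dck, which phosphorylates deoxycytidine, at 165 and 50.2 CPM. Mir142hg stood at 106 and 29.1 CPM, Ubfd1 at 109 and 37.0 CPM, and Plet1 at 188 and 52.9 CPM with 86.8% of its WT UMIs in 5 cells. Apoe, a macrophage-rich apolipoprotein gene, stood at 541 and 143 CPM, but 95.9% of its WT UMIs lay in the other-lineage members, and without them it stood at 27.1 and 19.5 CPM.

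The study followed RUNX3 in gut macrophages, and Runx3 was measured here too. It stood at 259 CPM (WT) and 188 CPM (KO) in the members, a log2 ratio of -0.47 (-0.84 to -0.09), and the interval held 0 among members without maturation UMIs (-0.33, -0.82 to 0.15). Its partner gene Cbfb and its relative Runx1 had intervals that hold 0, at -0.30 (-0.96 to 0.38) and -0.09 (-0.48 to 0.30). Zfp36, which encodes an mRNA decay factor, stood at 1049 and 1112 CPM (0.08, -0.09 to 0.26), but at 1077 and 808 CPM (-0.41, -0.67 to -0.16) among members without maturation UMIs. Of the 9 genes that the study followed and that had at least 50 UMIs, 2 intervals lay above and 2 below 0, and 1 gene, Hspa1a, was called higher in all members but was lower in KO among those without maturation UMIs (-0.86, -1.66 to -0.10).

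Most of the named differences were also seen in other dendritic cells of the same libraries. Of the 15 genes named as higher, the interval lay above 0 in 13 in the cycling cDC1, 12 in the mature dendritic cells, 13 in the Cd209a Mgl2 cDC2 and 11 in the Plet1 Dpp4 cDC2, and below 0 in none of these gates. Over all genes with at least 50 UMIs in each gate, the interval lay above 0 for 9.69%, 11.3%, 10.8% and 15.0%. Of the 15 named as lower, it lay below 0 in 7, 13, 10 and 6, against 13.4%, 29.8%, 16.3% and 15.8% of all genes. The number of UMIs in a gate sets how many intervals exclude 0, so the gates cannot be ranked by these counts. It lay above 0 for Apoe in the cycling cDC1 and for Apoe, Ifi27l2a and Slfn5 in the Plet1 Dpp4 cDC2. The gates share libraries, so these are the same 2 samples seen again and not further evidence on the genotype. Ly6a stood at 302 CPM (WT) and 12.6 CPM (KO) in the mature dendritic cells, and Flt3 at 172 and 122 CPM. In the cycling cDC1 Flt3 stood at 305 and 119 CPM.

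**Figure D5:**
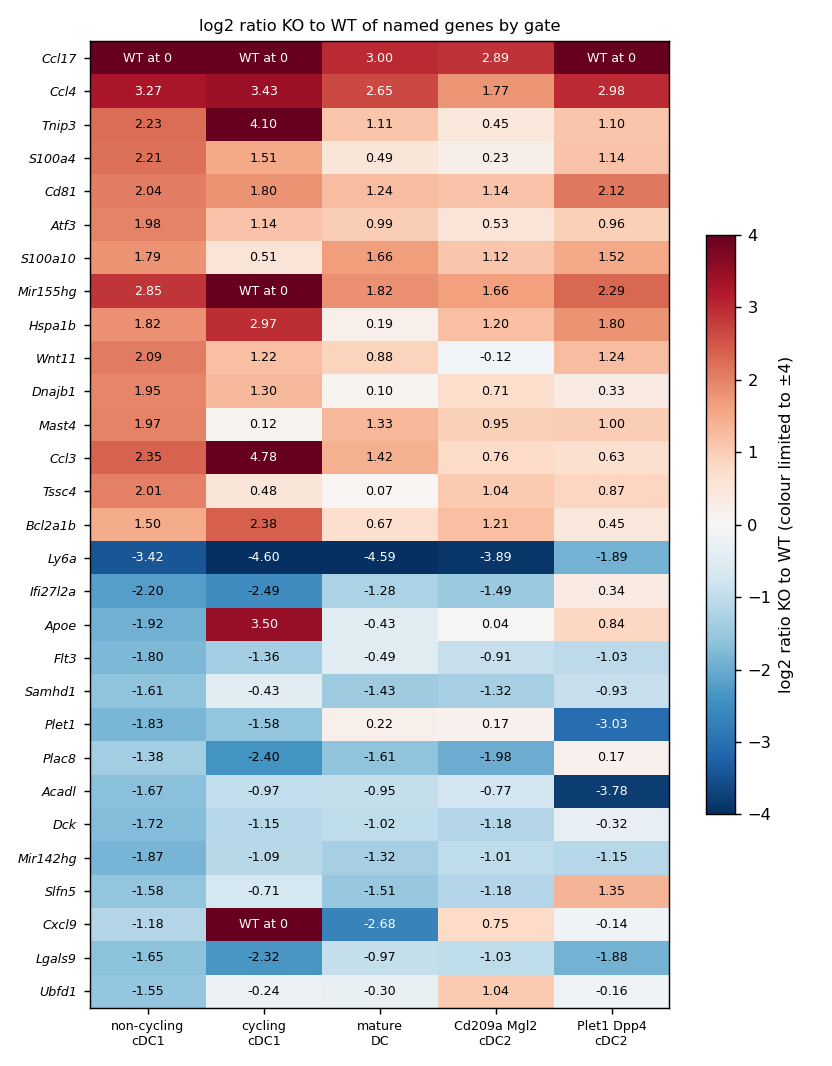
Log2 ratio of KO to WT (colour and printed value) of the same named genes (rows) in the members and in 4 other dendritic cell gates (columns). Most genes kept their sign across the gates, with Apoe, Cxcl9, Plet1, Slfn5 and Ubfd1 among those that did not; cells with no WT UMI are marked as such.

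Within each library the members were not uniform. After thinning to 2000 UMIs, which left out 1 WT cell, the ratio of variance to mean over cells was 1.03 in WT and 1.08 in KO for the median gene, and some genes lay far above it. Of the 15 most variable genes of each library, 10 were shared. Cxcl2, a neutrophil-attracting chemokine, had ratios of 13.8 and 13.1, and Apoe 15.5 and 7.80, and most of their UMIs lay in the other-lineage members (76.2% in WT and 67.9% in KO for Cxcl2, 95.9% and 87.0% for Apoe). Cxcl9, with most of its WT UMIs in those members too, had 12.2 in WT and 2.70 in KO. The nuclear RNA Malat1 had 19.3 and 12.9, and the transcript Gm42418 had 103 and 40.0. Txndc16, one of the genes that set the members apart from cDC2, had ratios of 6.48 and 7.35 and a UMI in 26.7% of thinned WT and 14.6% of thinned KO members.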

How the data were processed

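Single-cell 3′ RNA libraries of sorted colon lamina propria cells were made and sequenced by the authors, 1 per genotype. The authors deposited raw UMI counts, one table per library, written by Cell Ranger 3.0.2 per the file headers. The submitters' processing notes list the build mm10 and Seurat 4. The libraries held 3185 WT barcodes with 22191774 UMIs and 3020 KO barcodes with 23384895 UMIs, and the study's filters left 2597 and 2514 cells. The study's figure legend states more cells than the deposited barcodes for both libraries, by far the more for WT, and the cells beyond them were not analysed here. Groups came from the genotype label. No doublet caller was run, and members with other lineages' UMIs were counted instead.

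UMIs were summed over members per library. Levels are in CPM with Poisson intervals computed exactly, ratios carry exact conditional binomial intervals, and shares carry Clopper-Pearson intervals (Python 3.11.15, numpy 2.4.6, scipy 1.17.1). Genes needed 50 UMIs over both libraries, calls needed a 2-fold ratio with a prior of 1 CPM, and a count of 0 was given a floor of 3. The 15 genes named in each direction had the most extreme interval bounds and a UMI in at least 10 cells of the higher library, without genes of the rule, mitochondrial and immunoglobulin genes. 1 gene named in each of 2 comparisons is not reported here. Intervals were tested on sums simulated from the Poisson model that they assume. Those sums leave out variation among cells, so the test cannot show whether the intervals cover it. The members and lists were chosen with earlier results of these data known. Alternatives covered cell filters, the rule's limits, other-lineage members, scaling, the prior and the UMI minimum. Promoter sequences came from RefSeq tables of GRCm38.p6.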

Additional observations from a re-analysis of the deposited data

Results flagged for a closer look

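The KO to WT ratios of 114 selected genes were compared between the non-cycling cDC1 and the Cd209a Mgl2 cDC2. For some of these genes they lay on opposite sides of 0, with both counting intervals excluding 0. Other genes were not screened, so no share over all genes is given. The differences between the log2 ratios, members minus cDC2, were -0.98 for Cbfa2t3, 1.36 for Ccl6, 1.63 for Ccr2, -4.48 for Cxcl1, -1.26 for Cxcl2, -3.02 for Il10, -1.73 for Isg15, 0.63 for Nfkbia and -3.20 for Oasl1. None of these differences was tested, since each gate has 1 library per genotype. Ccr2, a chemokine receptor gene, stood at 96.3 CPM in the WT and 194 CPM in the KO members, and at 676 and 441 CPM in the cDC2, but its ratio in the members reversed to -0.10 at a limit of 1 UMI of Xcr1 and Clec9a. Cbfa2t3, a transcriptional co-repressor gene, stood at 393 and 257 CPM in the members, but at 450 and 440 CPM (-0.03, -0.40 to 0.33) among those without maturation UMIs. For Il10, Cxcl1 and Cxcl2, 100%, 84.2% and 76.2% of the WT UMIs of the members lay in cells with other lineages' UMIs, and for Oasl1 52.9%. Without those cells the intervals of Cxcl1 (-1.38, -3.43 to 0.60), Cxcl2 (-0.39, -0.82 to 0.04) and Oasl1 (-0.41, -1.37 to 0.58) held 0.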

How the results depend on the processing

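No paired analysis was possible because each genotype has 1 library. The log2 ratio of shares stayed between 0.14 and 0.69 over 7 alternatives, with an interval above 0 only at a limit of 1 UMI for Xcr1 and Clec9a (0.53, 0.01 to 1.06), and went to -0.54 when only members with no Ccr7, Fscn1 or Ccl22 UMI were kept, an alternative chosen after seeing the data. The number of genes called higher (87 of 2933 tested) went to 52 of 636 with the rule applied to cells thinned to 2000 UMIs, which left 5 WT and 8 KO members, to 43 of 1628 without maturation UMIs, where 97 were lower, to 21 of 790 with a minimum of 200 UMIs and to 2295 of 11762 with a minimum of 1 UMI. The number called lower (88) went to 137 of 4213 with a limit of 1 UMI for Xcr1 and Clec9a, to 29 in the thinned cells, to 58 with a prior of 10 CPM, to 6 with at least 200 UMIs and to 1885 with at least 1 UMI. As shares of the genes tested, the thinned cells gave 8.18% higher and 4.56% lower, and members without maturation UMIs 2.64% and 5.96%. Of the 15 genes named as higher, 14 kept their sign in all 12 alternatives, and Hspa1b did not. Of those named as lower, 12 did, and Apoe, Cxcl9 and Mir142hg did not. These genes were picked for extreme bounds in the same cells, which several alternatives reuse, so kept signs are no separate evidence.

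Reversals were followed for 114 selected genes, not for all 829 genes whose interval excluded 0. Among the 114, those with an interval that excluded 0 in all members and a log2 ratio that reversed are given here. The ratios have 1 CPM added to both levels. Without other-lineage members they were 0.26 for Il1b, 1.32 for Apol7c, 1.37 for Cxcl9 and 4.14 for Il10, which has 0 WT UMIs there, so that its size rests on the added 1 CPM. Without maturation UMIs they were -0.42 for Hsph1, -0.49 for Hspa1b and -0.85 for Hspa1a. With at least 4 UMIs of Xcr1 and Clec9a they were 0.085 for Il1b, 0.19 for Cxcl1, 2.54 for Cxcl2, 2.93 for Apoe, 3.03 for Il1rn and 5.16 for Il10. With at least 1 UMI they were -0.10 for Ccr2 and 0.26 for Cxcl2. In the thinned cells they were -0.082 for Jund, 0.24 for Il1b, 0.44 for Itgae, 1.32 for Apol7c, 1.94 for Mir142hg, 2.83 for Cxcl2, 2.98 for Il10 and 4.44 for Il1rn. The cause was not tested, but the last set rests on 13 cells.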
